A study of Isoetes sinensis with 3 samples.

Results

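In the annotation of the *Isoetes sinensis* genome, 137 coding structures were each held by exactly 2 genes that lay on chromosomes outside the 11 pairs of this tetraploid. These 274 genes came from 54063 genes placed on the 22 pseudochromosomes, of 57303 genes in all, and from the 18934 placed genes with 5 or more CDS features (the separate coding segments of a gene model). The structure of a gene was its list of internal CDS lengths in transcript order, without the first and last segment. A structure was taken when exactly 2 placed genes had the same list, 1 on each of 2 chromosomes that were not numbered as partners (1 and 2, 3 and 4, up to 21 and 22). The members were therefore chosen by their internal CDS lengths and chromosomes. These are given as a description, and what follows concerns the introns, the outer CDS segments, the UTRs, the strands and the neighbouring genes. The structures on unpaired chromosomes are set against the 3881 two-copy structures whose copies lay on the 2 chromosomes of a pair, which are called paired structures. Another 135 structures had both copies on 1 chromosome.

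*I. sinensis* is an aquatic quillwort of the lycophytes, and the study assembled and annotated its genome. RNA of the root, the shoot and the sporophyte (1 library each, as labelled) served as evidence for the gene models. The deposited table holds gene positions and no value per tissue, so no tissue was compared. The genes are given by the identifiers of the annotation, in which the chromosome follows "evm.TU", and all positions refer to the study's own assembly.

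In a tetraploid that carries a pair of related genomes, most genes have a homoeolog, the corresponding gene at the same place of the partner chromosome. Copies on other chromosomes can come from older genome duplications, from duplicated segments, or from the movement of single genes, and they can also arise where an assembly places a sequence wrongly. Internal exon lengths usually change slowly because a change that is not a multiple of a codon shifts the reading frame, whereas intron lengths change readily. Copies that share intron lengths are therefore alike beyond their exon plan.

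The numbering of the chromosomes held as a guide to the pairs. Each of the 22 chromosomes shared more two-copy structures with its numbered partner than with any other chromosome. The smallest number shared with the partner was 281, and the largest number shared with any other chromosome was 3.

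The structures on unpaired chromosomes were spread over many chromosome combinations. Of the 220 possible combinations of unpaired chromosomes, 99 held a structure and 121 held none. There were 68 combinations with 1 structure, 24 with 2 and 7 with 3, and no combination held more. The 7 were chromosomes 1 and 17, 3 and 18, 4 and 5, 4 and 21, 5 and 7, 8 and 20, and 17 and 22. When the chromosomes were merged into their pairs, 50 of 55 combinations held a structure and the most in a combination was 6. That number was found for pair 17-18 with pairs 3-4, 19-20 and 21-22, and for pair 5-6 with pair 7-8.

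**Figure D1:**
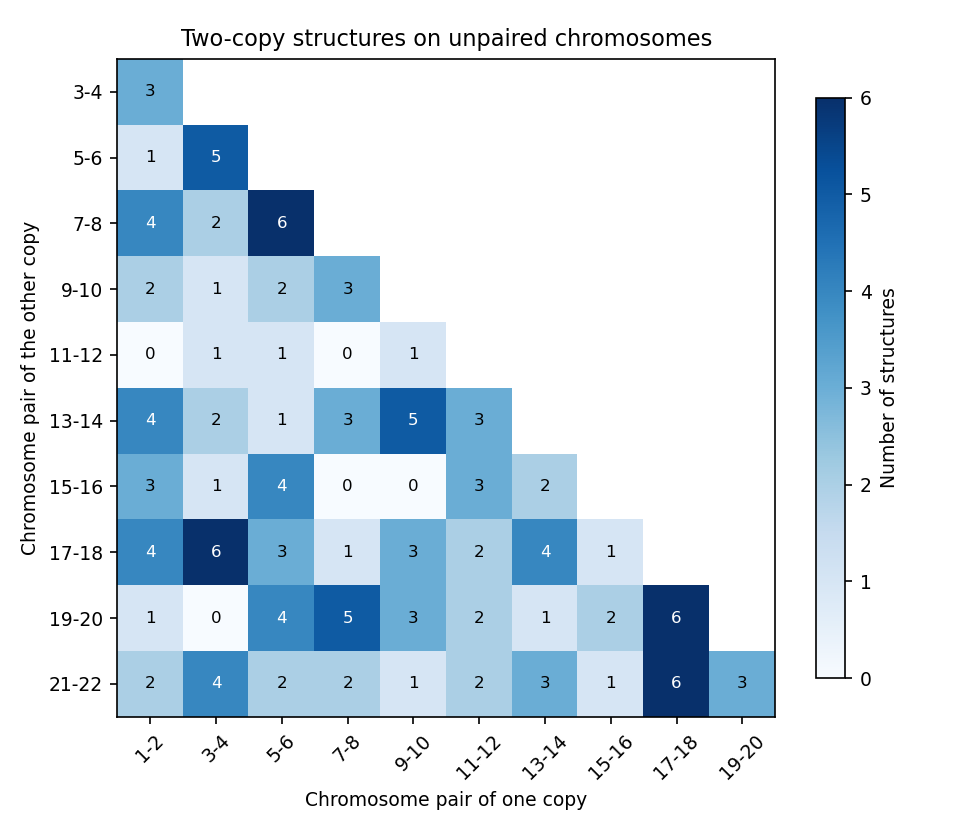
Number of two-copy structures for each combination of chromosome pairs; each axis lists the chromosome pairs by their numbers and the shade and the figure in a cell give the number of structures. The counts run from 0 in 5 combinations to 6 in 4 combinations, and pair 17-18 takes part in 3 of the 4 highest.

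Each chromosome had between 6 members (chromosome 12) and 19 members (chromosomes 5 and 17). As a share of the genes with 5 or more CDS features on a chromosome this was 0.712% on chromosome 15 and 2.03% on chromosome 17, the lowest and the highest share. By pair, 36 members lay on chromosomes 17 and 18, 29 on 5 and 6, and 15 on 11 and 12. Members were found along the whole length of the chromosomes. Of the 274 members, 39 (14.2%) lay in the outermost 5% at an end of their chromosome, against 8.72% of the genes of paired structures and 9.95% of all placed genes with 5 or more CDS features. The median gap to a neighbouring gene was 22045 bp for the members and 24774 bp for the genes of paired structures. For all placed genes with 5 or more CDS features it was 23231 bp.

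The structures on unpaired chromosomes were short. The median was 6 CDS features, against 8 in paired structures, and the longest had 34 and 65. Exactly 5 CDS features, the smallest number the rule admits, were present in 44 of 137 structures (32.1%), against 624 of 3881 paired structures (16.1%). At least 10 were present in 23 (16.8%), against 1584 (40.8%). The median total CDS was 875 bp, against 1395 bp, and the median gene length was 2446 bp, against 3689 bp. A list with few lengths is more easily shared by unrelated genes, and with 5 CDS features only 3 internal lengths had to match; how many structures this concerns was not tested. Just outside the rule, at exactly 4 CDS features, 111 structures lay on unpaired chromosomes and 612 on paired ones, so that 15.4% of both were unpaired. Just inside it, at 5 and at 6 CDS features, the share was 6.59% (44 and 624 structures) and 4.87% (25 and 488 structures).

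Introns were compared where they lie between internal CDS segments, since these were not used by the rule in any gene. Over all structures on unpaired chromosomes, 428 of 688 compared introns (62.2%) had the same length to the base in both copies, against 18750 of 26650 (70.4%) in paired structures. The introns sorted the structures into unlike classes. In 53 structures (38.7%) every compared intron was identical, in 56 (40.9%) some were, and in 28 (20.4%) none was. Among paired structures these classes held 892 (23.0%), 2853 (73.5%) and 136 (3.50%). Over all lengths together, both extremes were thus more frequent on unpaired chromosomes, and the middle class was less frequent. Part of this goes with length, since a structure of 5 CDS features has only 2 compared introns. Within that length, 25 structures on unpaired chromosomes had all introns identical, 9 some and 10 none, against 274, 269 and 81 paired structures. At 10 or more CDS features 2 had all, 18 some and 3 none identical, against 168, 1414 and 2. At this length the share with all introns identical was not higher on unpaired chromosomes.

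**Figure D2:**
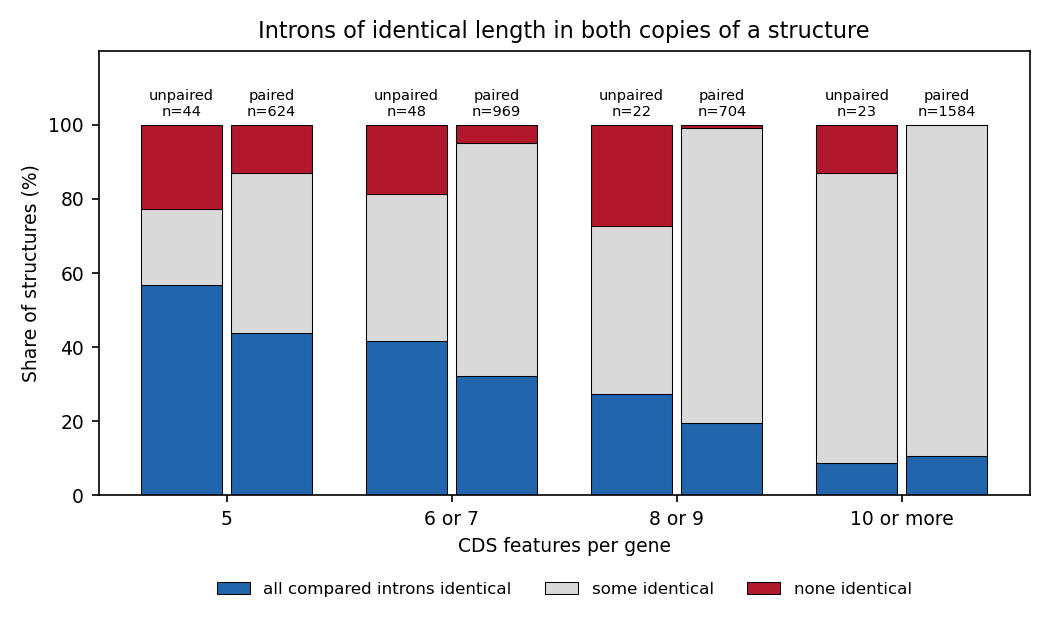
Share of structures (%) in which all, some or none of the compared introns have the same length in both copies, by the number of CDS features, with structures on unpaired chromosomes left of paired structures and the number of structures above each bar. The class with no identical intron is larger on unpaired chromosomes in each of the 4 length classes, at 10 of 44 structures against 81 of 624 for 5 CDS features and 3 of 23 against 2 of 1584 for 10 or more.

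To compare both kinds of structure over units that are not single genes, each share was computed once per chromosome pair, from the 15 to 36 structures on unpaired chromosomes with a copy on that pair and from the pair's own paired structures. A structure on unpaired chromosomes counts in both of the pairs that hold its copies, so the 11 pairs are not fully independent. The difference was tested by an exact two-sided sign-flip permutation test over the 11 chromosome pairs, with Benjamini-Hochberg adjustment over the 8 tests made. The smallest p that the 2048 sign flips can give is 0.000977. By this test identical introns were less frequent on unpaired chromosomes, with 61.2% ± 6.90 against 70.5% ± 2.75 (mean ± SD, n = 11 chromosome pairs). The share was lower in 10 of 11 pairs (exact permutation p = 0.00195, adjusted p = 0.00223). The size of the difference varied with length. Among structures of 8 or more CDS features the means were 56.8% and 71.1% (difference -14.3 percentage points, adjusted exact permutation p = 0.00469). Among those of 5 to 7 they were 66.4% and 67.4% (difference -1.003, adjusted exact permutation p = 0.757). This last split was chosen after the data had been seen, and the difference between both length classes was not itself tested.

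Introns that differed also differed by more. Among the 260 compared introns of unequal length on unpaired chromosomes the median difference was 10 bp, against 5 bp in paired structures. Differences of at most 5 bp made up 38.8%, against 52.5%, and differences of more than 100 bp made up 15.4%, against 6.71%. The compared introns were mostly short, with a median of 87 bp against 91 bp. The mean log2 intron length was 7.04 ± 0.13 against 7.14 ± 0.05 (mean ± SD over 11 chromosome pairs), a difference of -0.11 with an adjusted exact permutation p of 0.0293. Without any 1 of 5 chromosome pairs (7-8, 9-10, 11-12, 17-18 or 21-22) this adjusted p exceeded 0.05, and the difference lay between -0.13 and -0.09 over all 11 omissions.

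The outer CDS segments, which the rule left out, were alike less often on unpaired chromosomes. The summed CDS length was the same in both copies in 72 of 137 structures (52.6%), against 3342 of 3881 (86.1%). Over the chromosome pairs the share was 52.3% ± 13.6 against 86.2% ± 1.83 (mean ± SD, n = 11), lower in 11 of 11 pairs (exact permutation p = 0.000977, adjusted p = 0.0013). The values ranged from 29.2% to 69.0% on unpaired chromosomes and from 83.0% to 88.5% in paired structures, so that the ranges did not overlap. The first CDS segment had the same length in 62.7% ± 12.2 against 90.8% ± 1.59, and the last in 70.9% ± 8.85 against 94.6% ± 1.28 (mean ± SD, n = 11). Both were lower in 11 of 11 pairs (exact permutation p = 0.000977 and adjusted p = 0.0013 for each). Since the internal segments match by the rule, the 3 values are not independent of one another.

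By count, 28 structures on unpaired chromosomes differed only in the first CDS segment, 16 only in the last and 23 in both, against 326, 182 and 33 paired structures. In the 65 structures whose summed CDS differed, the difference was 3 to 1620 bp with a median of 63 bp. It was a multiple of 3 in 63 of them, at most 30 bp in 21 and more than 300 bp in 10. By intron class, the summed CDS was the same in 32 of the 53 structures with all introns identical (60.4%) and in 8 of the 28 with none (28.6%). The same classes of paired structures had 89.9% and 69.9%.

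Gene models also differed in their UTRs and in the source named for them. An untranslated region (UTR), which gene prediction usually takes from transcript evidence, was present in both copies of 61 structures on unpaired chromosomes (44.5%), in 1 copy of 28 and in neither copy of 48. Among paired structures the counts were 3320 (85.5%), 303 and 258. Over the chromosome pairs the share with a UTR in both copies was 43.5% ± 9.60 against 85.5% ± 1.64 (mean ± SD, n = 11), lower in 11 of 11 pairs (exact permutation p = 0.000977, adjusted p = 0.0013). The annotation marks some gene models with EVidenceModeler, the program that merges predictions, as source and names no source for the others. Members of both kinds have identifiers beginning with "evm.TU", and the study made its single gene set with EVidenceModeler. The mark therefore does not tell which program built a model. Both copies carried the mark in 47 structures on unpaired chromosomes (34.3%) against 224 paired structures (5.77%). Neither carried it in 65 (47.4%) against 3378 (87.0%). The source and the UTR coincide almost fully. Of the gene models marked in this way, 0 of 119 members and 0 of 727 genes of paired structures had a UTR, against 150 of 155 members (96.8%) and 6943 of 7035 genes (98.7%) with no source named. The shares with a UTR therefore cannot be told apart from the shares of models by source. Among structures with no source named in either copy, a subset chosen after the data had been seen, the difference in summed CDS length was -27.3 percentage points (60.1% against 87.4%, adjusted exact permutation p = 0.0026).

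The introns also varied with the source of the models. All compared introns were identical in 23 of the 47 structures with both copies marked (48.9%) and in 23 of the 65 with neither marked (35.4%), against 25.9% and 23.1% of the same classes of paired structures. Among structures with no source named in either copy, identical introns averaged 59.99% against 70.9% over the chromosome pairs. The difference was -10.9 percentage points, lower in 10 of 11 pairs (adjusted exact permutation p = 0.0026), and is as large as over all structures.

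Both copies were on the same strand in 65 structures and on opposite strands in 72, so that 47.4% agreed in strand, against 74.2% of paired structures. Over the chromosome pairs this was 46.6% ± 9.69 against 74.3% ± 4.01 (mean ± SD, n = 11; exact permutation p = 0.000977, adjusted p = 0.0013). Chromosomes of different pairs have no fixed orientation to each other, so this share has no fixed direction on unpaired chromosomes. The rule chose the chromosomes, so no conclusion about the structures is drawn from this test.

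**Figure D3:**
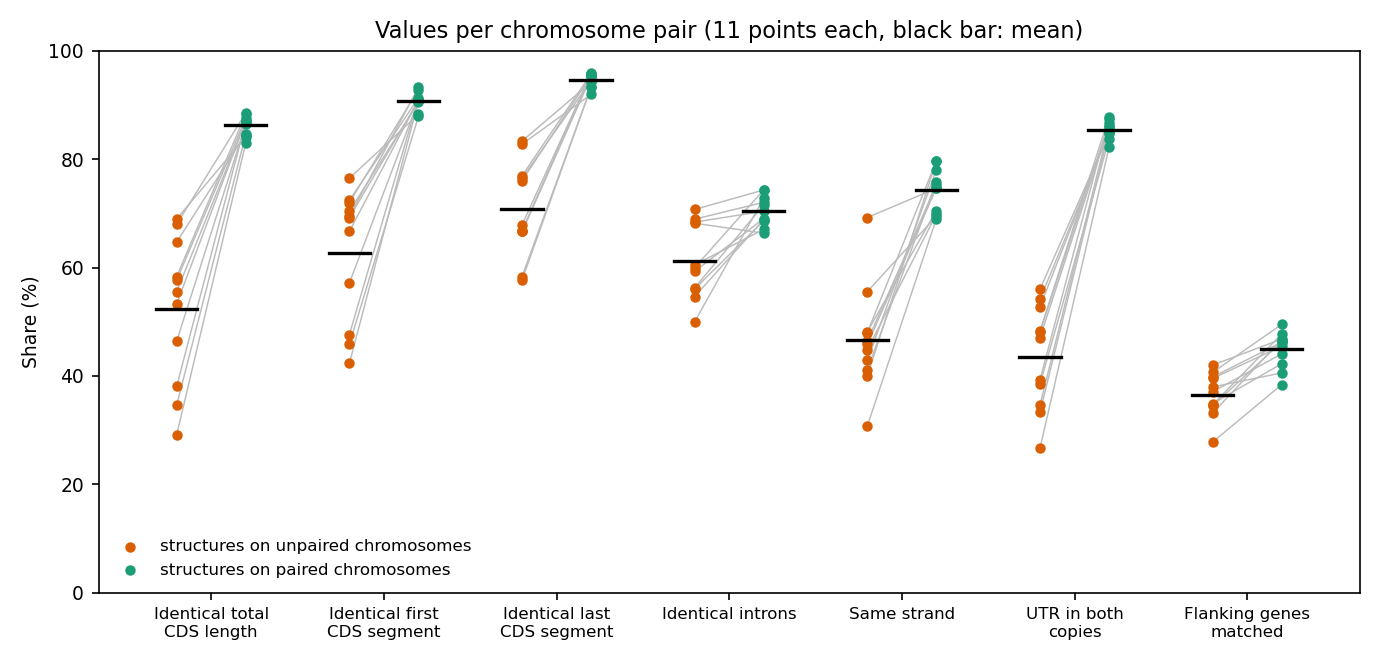
Share (%) for each measure, with 11 points per group, 1 per chromosome pair; structures on unpaired chromosomes stand left of paired structures, grey lines join the values of a pair and black bars are means. For the summed CDS the points lie between 29.2% and 69.0% on unpaired chromosomes and between 83.0% and 88.5% in paired structures, and for identical introns and matched flanking genes the 2 groups overlap.

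Some structures were alike throughout. In 26 structures (19.0%) every CDS segment and every intron had the same length in both copies, against 478 paired structures (12.3%). In 21 of the 26 the whole gene length was the same as well, and in 11 of these 21 both copies also had UTRs. These 26 structures had 5 to 11 CDS features, 13 of them had 5, and in 10 both models were marked with EVidenceModeler as source. As an example chosen after its values were seen, evm.TU.Chr6.751 (chromosome 6, 14627546 to 14632087, minus strand) and evm.TU.Chr16.470 (chromosome 16, 9676378 to 9680919, minus strand) both spanned 4542 bp. Their CDS segments measured 3, 117, 127, 131, 166 and 29 bp, and their introns 459, 78, 61, 91 and 429 bp. No gene with 2 or more CDS features within 10 places of one copy had its CDS list near the other.

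The structure with the most CDS features, 34, was held by evm.TU.Chr2.2671 (chromosome 2, 51117914 to 51139661, minus strand) and evm.TU.Chr4.369 (chromosome 4, 6320771 to 6342591, plus strand). All 34 CDS segments matched, including the outer ones of 72 and 107 bp, for 3168 bp of coding length in each. Of 31 compared introns 29 were identical, among them introns of 2257, 2601, 2246 and 2763 bp. The other two measured 110 and 2298 bp on chromosome 2, and 120 and 2357 bp on chromosome 4. The genes spanned 21748 and 21821 bp. No near-copy of either was found on its own partner chromosome.

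The opposite case was evm.TU.Chr5.2271 (chromosome 5, 40950814 to 40954843) with evm.TU.Chr7.1370 (chromosome 7, 25835207 to 25840412), the structure with the most compared introns of which none was identical. Its 10 internal CDS lengths were 693, 89, 70, 84, 77, 82, 83, 67, 129 and 110 bp in both genes. The first CDS was 319 bp on chromosome 5 and 316 bp on chromosome 7, and the last was 96 and 99 bp, so the summed CDS was 1899 bp in both. None of the 9 compared introns matched. They ran from 77 to 268 bp on chromosome 5 and from 74 to 696 bp on chromosome 7. Both copies had a near-copy at the expected place of their own partner chromosomes, evm.TU.Chr6.2167 and evm.TU.Chr8.1176, with which they shared 7 of 8 and 5 of 7 introns.

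The largest ratio of gene lengths, 12.4, was found between evm.TU.Chr8.1274 (831 bp) and evm.TU.Chr19.2206 (10312 bp). They had 5 CDS features and shared the internal lengths of 139, 111 and 69 bp. The 2 compared introns were 88 and 73 bp on chromosome 8 and 8313 and 1184 bp on chromosome 19, and the summed CDS was 450 and 374 bp. Both models were marked with EVidenceModeler as source and had no UTR. Over all structures on unpaired chromosomes the longer gene was at least 2 times as long as the shorter in 9 of 137.

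Collinear runs were rare among the structures that the rule admits. A run was formed by structures of the same 2 chromosomes whose copies followed each other within 50 genes on both. The 137 structures formed 3 runs with 7 structures, and 130 structures stood alone.

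Among the structures of the rule, the longest run joined chromosomes 4 and 5 with 3 structures in reversed order. On chromosome 4 it spanned 4237652 to 4500965 (263 kb and 9 genes), and on chromosome 5 it spanned 37566581 to 37637764 (71.2 kb and 4 genes). Its structures were evm.TU.Chr4.256 with evm.TU.Chr5.2079 (8 CDS features, 1785 bp), evm.TU.Chr4.257 with evm.TU.Chr5.2078 (11 CDS features, 2541 bp) and evm.TU.Chr4.265 with evm.TU.Chr5.2075 (8 CDS features, 1356 bp). The summed CDS was the same in all 3, and all 18 compared introns were identical. Among them were introns of 2414 and 2621 bp. The middle structure was the only one with 8 or more compared introns that were all identical. Its internal CDS lengths were 115, 41, 251, 181, 210, 159, 159, 78 and 137 bp, its introns were 90, 210, 76, 68, 72, 87, 65, 80, 293 and 91 bp, and its genes were 4912 bp long on both chromosomes.

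Genes with fewer CDS features extended this run. evm.TU.Chr4.264 and evm.TU.Chr5.2076 (2 CDS features, 354 bp) and evm.TU.Chr4.266 and evm.TU.Chr5.2074 (2 CDS features, 1299 bp) had identical CDS lists and identical introns. The block then held 10 genes on chromosome 4, from 4237652 to 4504211 (267 kb). Of these, 5 had their copy on chromosome 5 within 74.4 kb, where the 5 copies were neighbours. Another 2 had their copy on chromosome 6 (evm.TU.Chr4.260 with evm.TU.Chr6.1986, 12 CDS features, 2472 bp, and evm.TU.Chr4.262 with evm.TU.Chr6.1987, 2 CDS features, 1077 bp), and 3 had no copy at these sites. Over these 7 genes 36 of 38 introns were identical, counting the outer introns as well, and the summed CDS was the same in 7 of 7. On both sides of the block on chromosome 4, some genes matched chromosome 3, the numbered partner, and these matches followed the same order. Other genes there had no match, and evm.TU.Chr4.273 and evm.TU.Chr4.275 matched the same gene, evm.TU.Chr3.318.

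**Figure D4:**
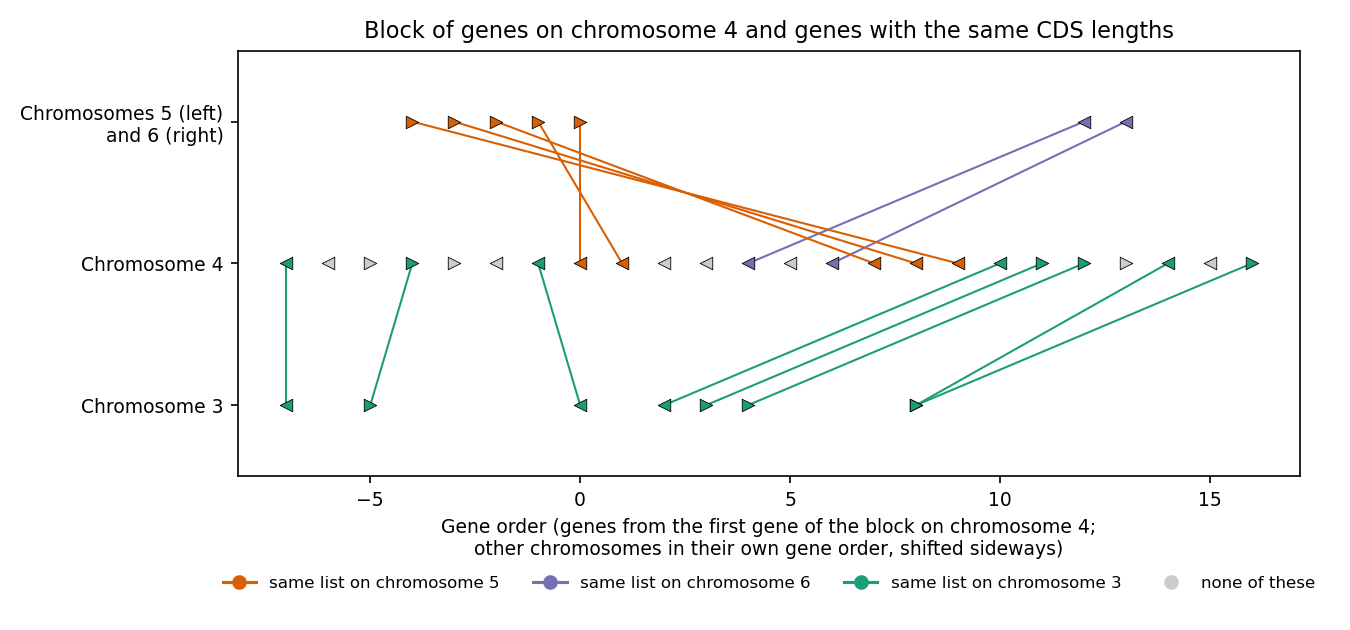
Genes around the block on chromosome 4 in gene order (x axis, in genes from the first gene of the block), with lines to genes of the same CDS lengths on chromosomes 5 and 6 (upper row) and on chromosome 3 (lower row); arrowheads give the strand, and the other chromosomes keep their own gene order but are shifted sideways. Of the 10 genes of the block, 5 link to chromosome 5 in reversed order and 2 to chromosome 6, and some of the genes on both sides link to chromosome 3.

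The copies on chromosomes 5 and 6 lay at corresponding places of a pair and resembled each other. The 4 genes evm.TU.Chr4.257, evm.TU.Chr5.2078, evm.TU.Chr4.260 and evm.TU.Chr6.1986 shared their first 10 CDS lengths and their first 8 introns. Intron 9 measured 293 bp in evm.TU.Chr4.257, evm.TU.Chr5.2078 and evm.TU.Chr4.260, and 333 bp in evm.TU.Chr6.1986. On chromosome 4, evm.TU.Chr4.257 and evm.TU.Chr4.260 were separated by 158 kb with 2 genes between them. The members of the block on chromosome 4 had no near-copy on chromosome 3, whereas evm.TU.Chr5.2079 and evm.TU.Chr5.2078 had near-copies at the corresponding place on chromosome 6, with 83.3% and 90% of the longer list shared.

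The second block joined chromosomes 4 and 21. evm.TU.Chr4.2270 (chromosome 4, 40158982 to 40170522) and evm.TU.Chr21.444 (chromosome 21, 9118225 to 9129164) had 24 CDS features and 2910 bp of coding length, and 10 of their 22 internal segments were 72 bp long. Of 21 compared introns 19 were identical. The introns that differed measured 4304 and 582 bp on chromosome 4 and 4303 and 583 bp on chromosome 21. evm.TU.Chr4.2275 and evm.TU.Chr21.439 (6 CDS features, 1632 bp) shared 3 of 3 compared introns and a gene length of 8278 bp, of which 1 intron took up 6349 bp. The 2 genes between them on chromosome 4, evm.TU.Chr4.2272 (417 bp) and evm.TU.Chr4.2274 (4497 bp), had copies with the same CDS and intron lengths in evm.TU.Chr21.442 and evm.TU.Chr21.440. The block thus held 4 neighbouring genes on each chromosome, in reversed order, over 55.5 and 55.3 kb, with 29 of 31 introns identical. evm.TU.Chr21.444 also had a near-copy in place on chromosome 22, evm.TU.Chr22.469, with which it shared 1 of 16 introns, while it shared 14 of these 16 with the copy on chromosome 4. Segments of the same 72 bp can be aligned with a near-copy in several ways. Whether the 16 introns of the near-copy are the corresponding ones was not tested.

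The third run joined 2 neighbouring genes of chromosome 1, evm.TU.Chr1.1703 and evm.TU.Chr1.1704, with the last 2 genes of chromosome 17, evm.TU.Chr17.5026 and evm.TU.Chr17.5027, in the same order over 7.40 and 7.27 kb. All 4 compared introns were identical, and 6 of 8 with the outer introns counted. This run was described after its values were seen. evm.TU.Chr1.1703 and evm.TU.Chr17.5026 differed in intron 1 (399 bp on chromosome 1 and 313 bp on chromosome 17) and in intron 4 (80 and 83 bp). The first pair of genes had 1281 bp of CDS in each copy, and the second had 681 bp on chromosome 1 and 639 bp on chromosome 17, where the first CDS was 48 bp and not 90 bp.

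The surroundings of the 2 copies were then compared gene by gene. A flanking gene was counted as shared where a gene with 2 or more CDS features within 10 places of a copy had the same full list of CDS lengths as a gene within 10 places of the other copy. This measure was added after the data had been seen. At least 1 shared flanking gene was found for 12 of 137 structures (8.76%), and 8 of these had 2 or more, with 4 as the highest. Among paired structures 3789 of 3881 (97.6%) had at least 1, with a median of 4. The 12 structures lay in 9 chromosome combinations, and 6 of them belonged to the runs above. Outside the runs, 6 of 130 structures (4.62%) had a shared flanking gene. These 6 had 39 of 56 compared introns identical (69.6%), against 42 of 44 in the 6 within runs (95.5%). The 124 structures outside the runs with no shared flanking gene had 345 of 586 (58.9%).

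One of these small blocks outside the runs was found after its values were seen. evm.TU.Chr15.2835 on chromosome 15 and evm.TU.Chr19.4484 on chromosome 19 had 17 CDS features and 8 of 14 compared introns in common, and were followed on both chromosomes by 3 genes with the same CDS lengths (366, 447 and 360 bp).

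Each copy had its own setting within its pair of chromosomes. Of the genes with 5 or more CDS features within 10 places of a member, 703 of 1912 (36.8%) were matched, that is, had a two-copy structure shared with the partner chromosome. Around the genes of paired structures this was 25704 of 56734 (45.3%), and among all placed genes with 5 or more CDS features it was 41.0%, so the share around members lay below both. Over the chromosome pairs the share was 36.6% ± 4.09 against 44.9% ± 3.30 (mean ± SD, n = 11), lower in 11 of 11 pairs (exact permutation p = 0.000977, adjusted p = 0.0013). The reference genes of this test were themselves chosen as matched, the property that is counted around them. The test does not set the members against all placed genes. Among structures of 8 or more CDS features the difference was -3.88 percentage points, with an adjusted exact permutation p of 0.142. At the adjacent places the shares were 32.2% before and 28.2% after a member, against 49.0% and 48.8% for paired structures. At least 1 matched gene lay within 10 places of 240 members (87.6%), and none lay there for 34. For 258 members matched genes were present on both sides, with a median of 14 genes between them on the member's chromosome and 12 on the partner. In 234 of these 258 (90.7%) the interval on the partner held at most 50 genes, so that the place where a homoeolog would lie could be given.

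A near-copy was a gene on the member's own partner chromosome that shared at least 3 internal CDS lengths in order, amounting to 60% or more of the longer list. Such a gene was found for 55 of 274 members (20.1%), and for 42 of these it lay at the corresponding place. Both copies had a near-copy in 9 structures, 1 copy in 37 and neither in 91. By length, 6.82% of the members with 5 CDS features had one, 15.6% with 6 or 7, 36.4% with 8 or 9 and 39.1% with 10 or more. The reference here were the placed genes whose list no other gene had, among which the shares were 5.36%, 26.1%, 35.8% and 62.6%. All 18 near-copies of members with 10 or more CDS features were in place. A member with 5 CDS features has only 3 internal lengths, so all of them had to recur within a longer list.

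**Figure D5:**
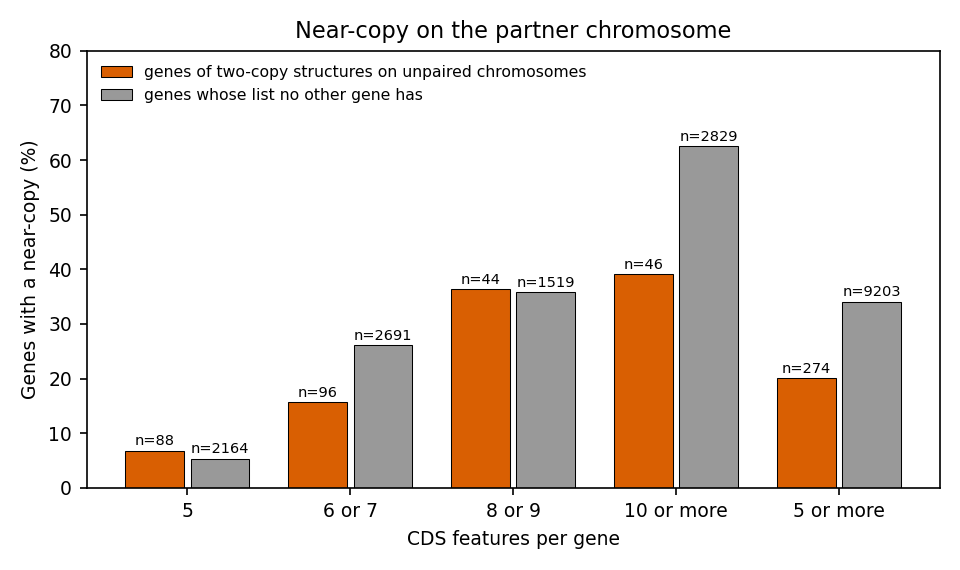
Share of genes (%) with a near-copy on the partner chromosome, by the number of CDS features; members stand left of genes whose list no other gene has, and the number of genes is above each bar. The shares are 6.82% against 5.36% at 5 CDS features and 39.1% against 62.6% at 10 or more.

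The 42 members with a near-copy in place could be compared with both relatives over the same introns. They shared 191 of 269 introns (71.0%) with the near-copy on the partner chromosome and 139 of 269 (51.7%) with the copy on the unpaired chromosome, whose internal CDS list was identical by the rule. By member, 23 shared more introns with the near-copy, 7 shared more with the unpaired copy and 12 shared equal numbers. The 7 included evm.TU.Chr5.2079 and evm.TU.Chr5.2078 of the block with chromosome 4, and evm.TU.Chr21.444, whose repeated segments can be aligned in several ways. Some comparisons entered from both sides, such as evm.TU.Chr7.3598 with evm.TU.Chr8.3318 (16 of 17 introns each way). The members are therefore not independent of one another, and the difference between both shares was not tested.

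In 8 structures both copies had a near-copy in place, so that 4 genes stood on 4 chromosomes of 2 pairs. They had 7 to 22 CDS features. None had all compared introns identical between the unpaired copies, and 33 of 78 were identical in all (42.3%). The 16 members shared 96 of 129 introns (74.4%) with their near-copies and 56 of 129 (43.4%) with the unpaired copies. In these counts the unpaired copies of each structure were compared from both sides. In evm.TU.Chr9.1712 and evm.TU.Chr11.324 (14 CDS features, described after their values were seen) 1 of 11 compared introns was identical, and the near-copies evm.TU.Chr10.1321 and evm.TU.Chr12.153 had 6 of 9 and 9 of 10 introns in common with them. In evm.TU.Chr1.2485 and evm.TU.Chr18.494 (22 CDS features, also described after their values were seen), 11 of 19 compared introns were identical. evm.TU.Chr1.2485 shared 11 of 18 with evm.TU.Chr2.2215, its near-copy, and 11 of the same 18 with evm.TU.Chr18.494.

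Near-copies were also counted by intron class, but the classes differed in length. Of the 53 structures with all introns identical, none had near-copies for both members, 9 had 1 for 1 member and 44 had none. Of the 28 with no identical intron the counts were 3, 11 and 14, and of the 56 with some they were 6, 17 and 33. At 5 CDS features, where near-copies were least frequent, stood 25 structures with all introns identical, 9 with some and 10 with none. At 10 or more CDS features these numbers were 2, 18 and 3. The classes were not compared at equal length. A shared flanking gene was present in 7 of the structures with all introns identical, in 5 of those with some and in 0 of the 28 with none. Over all structures it was present in 12 of 137 (8.76%). Of these 12, 6 lay in runs, where members can count as flanking genes of each other. Whether the classes differ in this was not tested.

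Although exactly 2 genes held each list, many structures had relatives elsewhere. When near-copies were sought on all chromosomes, 62 structures had no other near-copy, 23 had 1, 24 had 2, 23 had 3 to 9 and 5 had 10 or more. The highest number was 17, for evm.TU.Chr8.3746 and evm.TU.Chr18.4081. evm.TU.Chr4.2270 and evm.TU.Chr21.444 had 15, all on the same 2 chromosome pairs, but their repeated segments of 72 bp make such matches easier. In 43 structures near-copies lay on further chromosome pairs, and in 32 they lay only on the pairs that held the copies. Among the members themselves 4 pairs of structures were related in this way. evm.TU.Chr7.3598 with evm.TU.Chr10.583 and evm.TU.Chr8.3318 with evm.TU.Chr22.239 all had 22 CDS features, and these structures had 19 internal lengths in common (95%). They were picked out after their values were seen. evm.TU.Chr7.3598 and evm.TU.Chr8.3318, on the chromosomes of 1 pair, shared 16 of 17 introns, against 13 of 17 for evm.TU.Chr7.3598 with evm.TU.Chr10.583 and 9 of 17 for evm.TU.Chr8.3318 with evm.TU.Chr22.239.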

How the data were processed

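Per the labels and the study's methods, rRNA-depleted RNA-seq libraries were made of root, shoot and sporophyte (sporangia in the methods). Transcript evidence for the gene models came from RNA-seq, with whole-plant data named for PASA. Gene models came from Augustus, Genscan, GeneWise and PASA and were merged with EVidenceModeler on the study's own assembly. FastQC, HISAT2 and Cufflinks are listed as tools in the notes on processing of the submitters. The values used are the start and end positions (bp, another unit than an expression value) of genes, CDS and UTR features in the annotation that the authors deposited, with no normalization. Depth is unknown.

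CDS lengths, the gaps between consecutive CDS features (called introns) and gene order were computed with Python 3.11.15 and NumPy 2.4.6. Members, lists and tests were chosen with earlier results of these data known. Shares were compared over 11 chromosome pairs by exact two-sided sign-flip permutation tests with Benjamini-Hochberg adjustment over 8 tests and a threshold of 0.05, and the code was tested on simulated annotations. The fixed rules for naming structures took the most CDS features, the longest run and the 2-structure run with most identical introns. They also took 8 or more introns all identical, most introns none identical, and the largest length ratio. All other structures were named after their values were seen, also where the text does not repeat this. Alternatives changed the minimum number of CDS features, the list, the tolerance, the run and near-copy limits, and the chromosome pairs used. No genome sequence was used here, and no sequences are shown.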

Additional observations from a re-analysis of the deposited data

Results flagged for a closer look

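Genes on scaffolds outside the 22 pseudochromosomes entered no comparison above, and some of them held the same structures. Among 861 such genes with 5 or more CDS features, 12 had the internal CDS list of a structure on unpaired chromosomes, 1 each for 12 of the 137 structures (8.76%), against 106 of 3881 paired structures (2.73%). These genes are given because they lie outside the comparisons above, and the difference between both shares was not tested. Counted with them, these structures have 3 copies. In 3 cases the unplaced gene shared all introns with 1 placed copy and few with the other. evm.TU.Scaffold3535.49 shared 0 of 5 compared introns with evm.TU.Chr5.3606 and 5 of 5 with evm.TU.Chr8.545, evm.TU.Scaffold3709.78 shared 2 of 10 with evm.TU.Chr13.1618 and 10 of 10 with evm.TU.Chr21.512, and evm.TU.Scaffold3538.137 shared 4 of 4 with evm.TU.Chr8.2337 and 0 of 4 with evm.TU.Chr14.649. evm.TU.Scaffold3709.138 had the same 2910 bp of CDS as evm.TU.Chr4.2270 and evm.TU.Chr21.444 and shared 12 of 21 introns with each. Where these scaffolds belong was not tested.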

How the results depend on the processing

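Of 146 alternatives, 129 left the result on the same side of its threshold or within 1.5 times its count, 10 lost a call, 6 moved a count and 1 turned a direction. A minimum of 4 CDS features gave 248 structures, a minimum of 8 gave 45, and the full list of CDS lengths gave 86, of which 70 were among the 137. Structures held by 2 to 4 genes formed 28 runs, of which 13 held at least 2 different structures and 15 repeats of 1. Near-copies were found for 33 members at 80% of the longer list and for 89 with lengths within 3 bp. With a minimum of 8 CDS features the difference for matched flanking genes was -3.88 percentage points (adjusted p = 0.142) and that for mean log2 intron length -0.0700 (adjusted p = 0.316), each by the exact permutation test. With each structure counted in 1 chromosome pair only, the difference in identical introns was -9.62 percentage points (adjusted exact permutation p = 0.0167). As the mean of the share per structure it was -6.03 percentage points (adjusted exact permutation p = 0.0212). Counted in 1 chromosome pair only, the intron length difference was -0.110 (adjusted exact permutation p = 0.0518). Over the omissions of 1 chromosome pair it ran from -0.134 to -0.0852, and as the share of introns over 1000 bp it turned to 0.762 percentage points (adjusted exact permutation p = 0.262). The added subsets gave -4.28 percentage points for UTRs in both copies where no source was named, a subset that itself selects models with UTRs, and -1.003 for identical introns at 5 to 7 CDS features. Both kinds of structure were compared within each chromosome pair. Over the libraries, no paired analysis was possible because the 3 libraries have no replicates and no values in the annotation. The 11 chromosome pairs share structures, so they are not independent units and their p-values can be too small. All of them belong to 1 plant genome. Scaffold joins within the chromosomes and the sequences themselves were not analysed here, so a copied gene and a wrongly placed sequence cannot be told apart by lengths alone.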

Other observations

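Within 10 genes of a chromosome end lay 9 of the 274 members, and 2 were the first or last gene of their chromosome. Within 50 genes of an end lay 20 members (7.30%), against 4.37% of the placed genes with 5 or more CDS features. These 2 were evm.TU.Chr5.1, the first gene of chromosome 5, and evm.TU.Chr17.5027, the last of chromosome 17, both named after their values were seen. These shares were not tested.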
